A study of Mus musculus with 8 samples.

Results

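The 42 genes described here encode the machinery that copies DNA, from the proteins that mark an origin to the ligase that joins the finished fragments. They were taken by name from a list of replication genes, and all 42 were found among the 21887 protein-coding genes of the mouse build GRCm38.p6. ATAC-seq, which tags open chromatin by letting the transposase Tn5 cut and mark it, had been run on induced pluripotent stem cells (iPSCs) of the mouse. All came from 1 clonal line that carries FUCCI2, fluorescent reporters of cell cycle phase, and all were cultured on irradiated feeders with FBS, LIF, a MEK inhibitor and a GSK3 inhibitor. A library took 50000 cells. There were 8 libraries in 4 groups, each with replicates A and B. Mitotic cells were shaken off when nocodazole, a spindle poison, had been present at 200 ng/ml for 6 hours, and were taken at once (0 hours) or 1 and 3 hours after release into fresh medium. The asynchronous cells were left untreated.

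The data are an atlas of 76872 accessible regions, 1 list made from the series as a whole. It gives positions and no value per library, so the depth is unknown and no difference between mitotic, released and asynchronous cells could be measured. The values below are the positions, widths and numbers of regions at each gene, a description without a test. A region found in 1 group of cells may thus stand beside one found in every group. Of the pluripotency markers fixed for a check of the cells, Pou5f1, Sox2, Nanog, Klf4 and Zfp42 had a region at an end, and Esrrb had none there but 16 inside the gene. Of 6 feeder fibroblast markers, Col1a1 had a region at an end, Pdgfra had none there but 3 inside the gene, and Col1a2, Col3a1, Thy1 and Dcn had none in either place. The part of feeder cells in the regions below was not tested.

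DNA replication is prepared before S phase by licensing, when the origin recognition complex (ORC), Cdc6 and Cdt1 load the MCM ring onto DNA. Cdc45 and the GINS complex then turn the ring into an active helicase, and polymerases alpha, delta and epsilon copy the strands it separates. The sliding clamp PCNA, placed on DNA by the RFC loader, holds the polymerases to the template. RPA coats single strands, and FEN1 and DNA ligase I finish the fragments of the lagging strand. Many of these genes are textbook targets of the E2F factors, which drive transcription at the entry into S phase, and mouse pluripotent stem cells are known for a short G1.

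Accessible chromatin lay over the starts of these genes. A region lay within 1 kb of an outer limit of the gene, here called an end, in 39 of 42 genes (92.9%), against 62.0% of all protein-coding genes. The share of all genes was 68.2% among the 17827 as long as the replication genes, from 3.206 to 327.622 kb. All 13 helicase genes, all 9 polymerase genes and all 5 genes for RPA, FEN1 and ligase I had one. The licensing genes had one in 7 of 9 cases and the clamp and loader genes in 5 of 6. The 3 genes without one were Orc1, Orc4 and Rfc1.

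RefSeq promoter entries, which give the strand and the listed transcription starts, were found for 34 of the 42 genes. Gins1, Gins2, Gins4, Gmnn, Mcm4, Pole, Prim2 and Rfc2 were not matched. Of the 34 genes, 31 (91.2%) had a region within 1 kb of the outer limit at their start, against 59.0% of the 17492 protein-coding genes with an entry. Among the 14174 of those in the length range of the replication genes, the share was 65.5%. A region lay at the far limit of 3 of the 34 genes (8.82%), against 11.7% of all genes with an entry. Those 3 were Orc3, Rfc4 and Fen1, each of which had a region at the start too. Of all 42 genes, these and Gins4 had a region at both outer limits (9.52%), against 8.47% of all protein-coding genes.

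Orc1, Orc4 and Rfc1 also had a wide region over a listed start, well inside their outer limits. Orc1 encodes the largest ORC subunit, and its listed start lies 3749 bp inside the outer limit of the gene. A region of 987 bp at chromosome 4, 108578726 to 108579712, covered that start. Orc4 encodes another ORC subunit, with listed starts 2668, 2821 and 3635 bp inside the limit. Its region of 1329 bp, at chromosome 2, 48948654 to 48949982, covered the last of them. Rfc1 encodes the large subunit of the clamp loader, with a listed start 2978 bp inside the limit and under a region of 709 bp at chromosome 5, 65335225 to 65335933. Measured from any listed start, a region lay within 1 kb in 34 of 34 genes, against 62.5% of all genes with an entry. This rule was chosen after the values were seen.

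**Figure D1:**
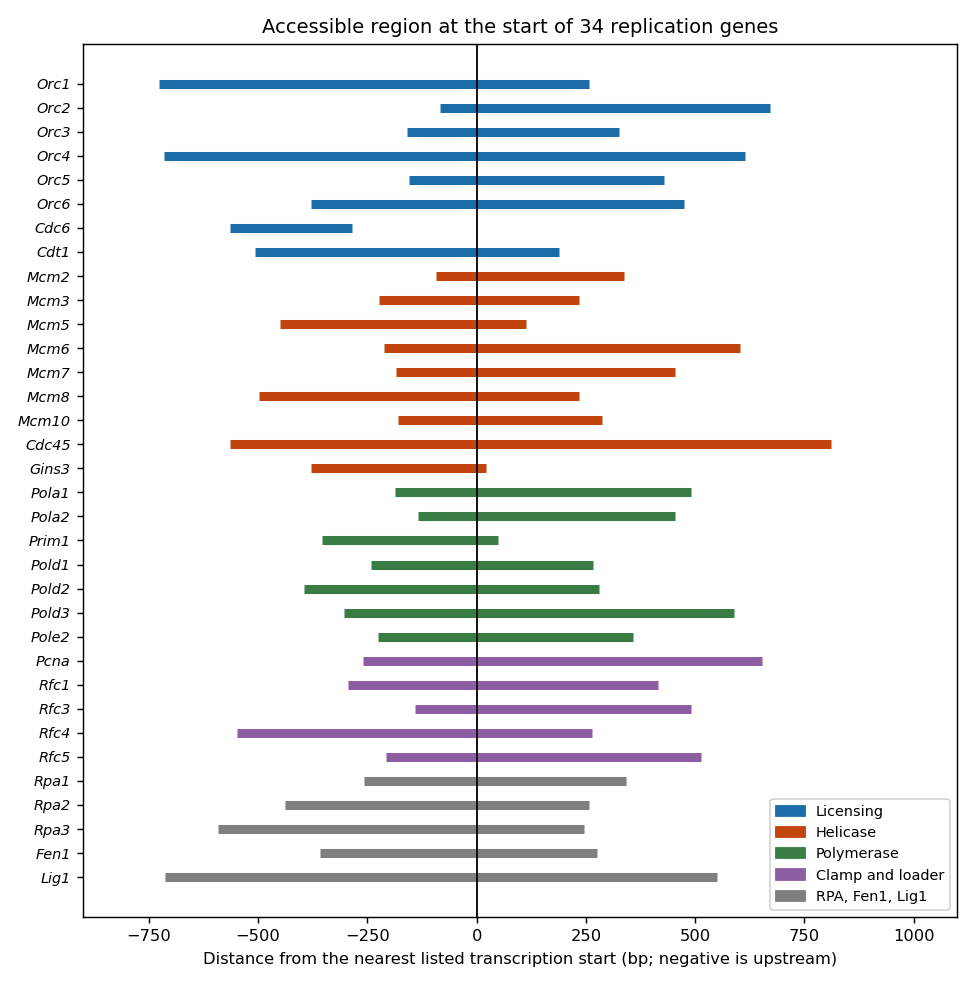
Position of the accessible region whose middle lies nearest to a listed start, for the 34 genes with a promoter entry. The x axis is the distance from that start in bp, with upstream at negative values, each bar is 1 region from edge to edge, and colours give the role; 33 of the 34 bars cross the start, and that of Cdc6 ends 286 bp before it.

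In 33 of these 34 genes a region covered a listed start, against 53.3% of all genes with an entry and 85.4% of the 10930 that had a region within 1 kb of one. The middle of a region lay within 200 bp of a listed start in 31, against 44.4% of all genes with an entry and 71.1% of those 10930. The region drawn for each gene is the one whose middle is nearest to a listed start, a choice that itself favours small distances. Its middle lay downstream of the start in 20 genes and upstream in 14, at a median of 45 bp downstream. The promoter window at the outermost listed start, described below, overlapped a region in 30 (88.2%), against 55.6% of all genes with an entry. With every listed window of a gene it was 33, against 57.8%. Cdc6, which encodes the ATPase that loads the MCM ring together with ORC, was the gene without a region over a listed start. Its region of 279 bp, the narrowest of the 34, spanned the outer limit at chromosome 11, 98907587 to 98907865, and the listed start lay 442 bp inside that limit. Lig1, which encodes DNA ligase I, had its region of 1263 bp at chromosome 7, 13278113 to 13279375. It began 938 bp inside the outer limit and covered the later listed starts, 1651 and 2090 bp inside it.

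The promoter windows of 14 of the 34 genes held letters of an E2F site, TTTNGCGC or TTCCCGCC on either strand. Of these, 6 are printed below, those with the widest overlapping regions, since they show where the E2F letters stand in accessible promoters of licensing, helicase, polymerase and loader genes. Each is the RefSeq window of 300 bases on the gene's strand, 250 before the listed start and 50 from it on, in build GRCm38.p6, with the E2F letters in capitals. Orc1 lies at chr4:108579204-108579503, plus strand. The polymerase delta subunit gene Pold3 lies at chr7:100121453-100121752, minus strand, and the clamp loader gene Rfc4 at chr16:23127681-23127980, minus strand.
Orc1: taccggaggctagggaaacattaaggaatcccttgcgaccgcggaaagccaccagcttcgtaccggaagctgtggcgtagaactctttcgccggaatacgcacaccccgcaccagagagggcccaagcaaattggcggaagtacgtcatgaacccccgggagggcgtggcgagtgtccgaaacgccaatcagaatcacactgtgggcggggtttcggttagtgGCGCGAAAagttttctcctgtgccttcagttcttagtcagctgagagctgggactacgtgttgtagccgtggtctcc
Pold3: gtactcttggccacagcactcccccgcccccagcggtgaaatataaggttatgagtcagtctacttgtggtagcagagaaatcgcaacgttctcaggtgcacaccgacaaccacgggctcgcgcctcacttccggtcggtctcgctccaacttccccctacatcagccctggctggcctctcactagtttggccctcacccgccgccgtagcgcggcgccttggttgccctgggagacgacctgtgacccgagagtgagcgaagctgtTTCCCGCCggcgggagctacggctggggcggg
Rfc4: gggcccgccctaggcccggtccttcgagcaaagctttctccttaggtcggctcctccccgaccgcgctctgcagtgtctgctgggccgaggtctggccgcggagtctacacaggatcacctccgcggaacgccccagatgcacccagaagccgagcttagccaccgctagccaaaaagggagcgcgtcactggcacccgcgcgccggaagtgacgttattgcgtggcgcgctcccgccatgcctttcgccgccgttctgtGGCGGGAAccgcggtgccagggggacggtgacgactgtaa
The helicase genes follow, with Mcm6 at chr1:128359656-128359955, minus strand, Mcm7 at chr5:138171834-138172133, minus strand, and Mcm8 at chr2:132815891-132816190, plus strand.
Mcm6: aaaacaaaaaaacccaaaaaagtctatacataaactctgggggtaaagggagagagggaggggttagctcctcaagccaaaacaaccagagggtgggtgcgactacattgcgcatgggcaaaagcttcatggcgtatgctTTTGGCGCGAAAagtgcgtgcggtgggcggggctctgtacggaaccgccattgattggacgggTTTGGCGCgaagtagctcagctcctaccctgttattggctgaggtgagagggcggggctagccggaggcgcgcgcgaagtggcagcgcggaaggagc
Mcm7: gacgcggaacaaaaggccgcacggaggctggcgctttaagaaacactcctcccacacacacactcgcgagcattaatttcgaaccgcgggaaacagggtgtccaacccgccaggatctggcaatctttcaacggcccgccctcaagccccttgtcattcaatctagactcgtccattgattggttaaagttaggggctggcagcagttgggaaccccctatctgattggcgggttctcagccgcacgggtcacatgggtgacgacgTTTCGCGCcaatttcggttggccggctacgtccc
Mcm8: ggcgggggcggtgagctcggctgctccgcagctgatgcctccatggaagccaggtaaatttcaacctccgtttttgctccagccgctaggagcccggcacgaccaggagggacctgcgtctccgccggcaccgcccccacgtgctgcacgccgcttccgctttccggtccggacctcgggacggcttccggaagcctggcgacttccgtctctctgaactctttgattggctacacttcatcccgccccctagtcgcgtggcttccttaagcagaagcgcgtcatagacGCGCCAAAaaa

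TTTNGCGC stood in 10 of the 34 windows (29.4%), against 1.76% of all 17492 windows and 2.71% of the 9733 windows that overlapped a region. The 10 were Cdt1, Mcm3, Mcm5, Mcm6, Mcm7, Mcm8, Orc1, Pola1, Pole2 and Rfc3. TTCCCGCC stood in 5 (14.7%), namely Mcm3, Pold1, Pold3, Prim1 and Rfc4, against 2.94% of all windows and 4.61% of those over a region. Both forms together gave 14 genes (41.2%), against 4.57% of all windows and 7.12% of those over a region. The letters are a description of the sequence, and neither binding nor chance was tested. The printed windows of Orc1 and Mcm7 also hold a listed start of a neighbour on the opposite strand, Prpf38a and Ap4m1. That of Mcm8 holds an end of Trmt6. Which gene of such a pair the letters belong to cannot be told from their position.

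By role, E2F letters were found in 5 of 9 helicase windows, 5 of 7 polymerase windows, 2 of 5 clamp and loader windows, 2 of 8 licensing windows and 0 of 5 windows of the RPA, Fen1 and Lig1 group. The windows read for Cdc6, Orc4, Fen1 and Lig1, in the last 2 of these roles, did not overlap a region. With every listed window of a gene, Orc4 and Lig1 also held E2F letters, which gave 3 of 8 licensing genes, 1 of 5 in the RPA, Fen1 and Lig1 group and 16 of 34 in all, against 5.13% of all genes with an entry. In Mcm6 the capitals include a pair of matches on opposite strands that share letters, beginning 110 and 106 bases before the start, and a separate match 47 bases before it. Mcm5, the gene of another subunit of the MCM ring, held a like pair beginning 153 and 149 bases before the start. The letters began 138 bases before the start in Pola1, 27 in Orc1, 15 in Prim1 and 10 in Rfc3. In the other genes they began after it, at base 11 in Pole2 and Rfc4, 17 in Mcm7, 19 in Pold3, 33 in Cdt1, 39 in Pold1 and 40 in Mcm8, counted from 1 at the start. Mcm3 held TTCCCGCC from base 19 and TTTNGCGC from base 39. Pcna, whose product is the sliding clamp, held neither form in its window, nor did Mcm2, Cdc6 and Cdc45. Other forms of the E2F site, and bases outside the windows, were not searched.

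CCAAT, the letters bound by NF-Y, stood in 22 of 34 windows (64.7%), against 39.2% of all windows and 41.4% of those over a region. All 9 helicase windows held it, as did 4 of 8 licensing, 3 of 7 polymerase and 3 of 5 clamp and loader windows. Rpa1, Rpa2 and Rpa3, which encode the subunits of RPA, held it as well. At least 2 copies stood in 13 windows (38.2%), against 13.5% of all windows and 17.1% of those over a region. E2F letters and CCAAT stood together in 9 windows (26.5%), against 2.01% and 3.26%.

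The remaining motifs stood nearer to their shares among all windows that overlapped a region. GGGCGG, the Sp1 letters, stood in 25 windows (73.5%), against 46.3% of all windows and 69.4% of those over a region. TATAAA stood in the windows of Cdc45 and Fen1 (5.88%), against 13.3% and 6.06%. Both matches were on the strand opposite to the gene. They began 177 bases before the start in Cdc45 and 224 in Fen1, whose window did not overlap a region. TTTGAA, the letters of the CHR element of late cell cycle genes, stood in those of Cdc45, Fen1, Gins3 and Mcm2 (11.8%), against 16.5% and 11.1%. The windows had a median GC content of 60.7% and 24 CpG dinucleotides, against 56.3% and 13 over all windows and 61.7% and 22 over those with a region. CpG numbers ran from 4 in Orc4 and 5 in Lig1, for the windows at their outermost listed starts, to 35 in Rfc1.

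**Figure D2:**
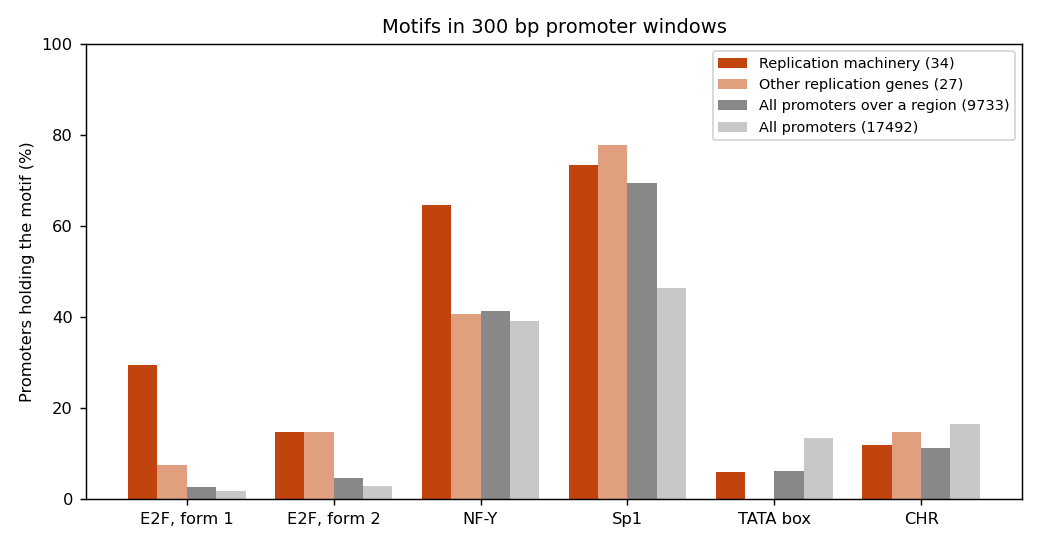
Share of promoter windows of 300 bp that hold each motif on either strand, in percent from 0. Bars give the replication machinery genes, other replication genes, all windows that overlap a region and all windows; E2F form 1 is TTTNGCGC, at 29.4, 7.41, 2.71 and 1.76%, and form 2 is TTCCCGCC, at 14.7, 14.8, 4.61 and 2.94%.

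The width of the regions at the ends was near that of other genes. In the 39 genes with a region at an end, the widest had a median of 680 bp, with quartiles at 532 and 833 bp. The median was 660 bp, with quartiles at 434 and 884.5 bp, over the 13567 protein-coding genes with one. A single region stood at the ends of 32 genes, 2 regions at those of 6, and 4 at those of Fen1. Of these 48 regions, 3 were narrower than 150 bp and 1 had the smallest width of the atlas, 73 bp.

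**Figure D3:**
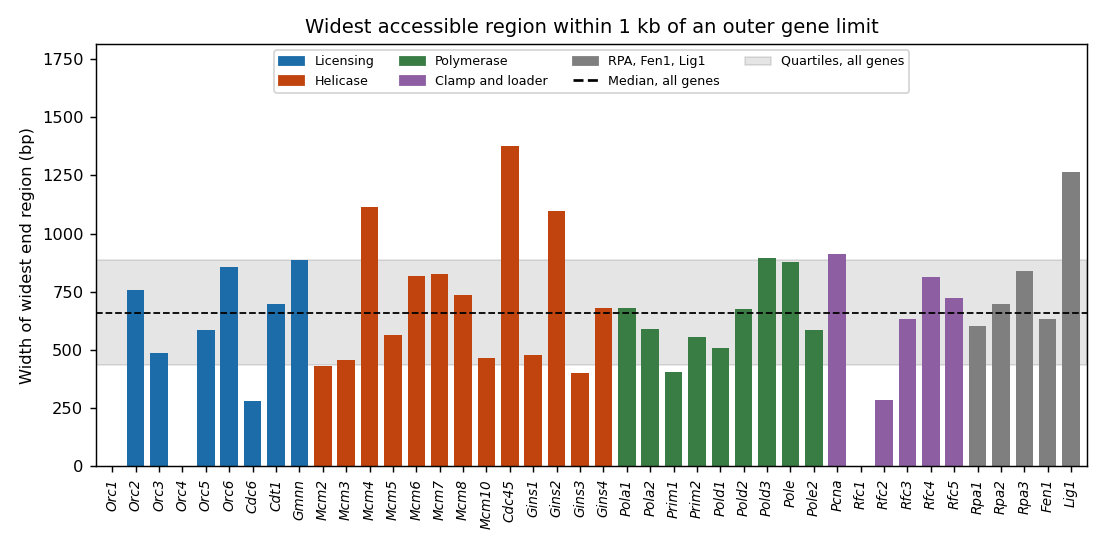
Width in bp of the widest region within 1 kb of an outer gene limit, 1 bar for each of the 42 genes, coloured by role; Orc1, Orc4 and Rfc1 have none and show no bar. The dashed line and the band are the median of 660 bp and the quartiles of all protein-coding genes with such a region. Cdc45 (1375 bp) and Lig1 (1263 bp) stand highest, and their regions also cover listed starts of the neighbours Ufd1 and Zswim9.

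Among licensing genes, Gmnn, which encodes geminin, the inhibitor of CDT1, had the widest region at an end, of 886 bp. Orc6 followed with 855 bp, Orc2 with 756 bp and Cdt1 with 697 bp. Orc5 had 584 bp and Orc3 had 486 bp. The Cdt1 region, at chromosome 8, 122567507 to 122568203, reached 508 bp upstream of the start and 188 bp downstream.

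The genes of the MCM ring differed among themselves. Mcm4 had a region of 1113 bp, Mcm7 of 826 bp, Mcm6 of 816 bp and Mcm5 of 564 bp, while Mcm3 had 457 bp and Mcm2 had 433 bp. The products of these 6 genes stand in the ring in equal number. Their widest regions ran from about the lower quartile of all genes (434 bp) to above the upper (884.5 bp). Those of Mcm4 and Mcm7 also lay at ends of Prkdc and Ap4m1. Mcm8, which encodes a relative of the ring subunits with a role in recombination repair, had 734 bp. Mcm10, whose product helps to start the helicase, had 467 bp.

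Cdc45 carried the widest region at an end of all 42 genes. It measured 1375 bp, at chromosome 16, 18811162 to 18812536, and also covered the listed start of Ufd1 on the opposite strand. The other activators of the ring, the GINS subunits, had 1096 bp in Gins2, 682 bp in Gins4, 478 bp in Gins1 and 402 bp in Gins3.

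The polymerase genes lay closest together, from 403 to 893 bp. Pold3, for an accessory subunit of polymerase delta, had 893 bp and Pole, for the catalytic subunit of polymerase epsilon, had 880 bp. Pola1, for the catalytic subunit of polymerase alpha, had 680 bp and Pold2, for the small subunit of polymerase delta, had 676 bp. Pola2 had 589 bp, Pole2 had 584 bp, Prim2 had 554 bp and Pold1, for the catalytic subunit of polymerase delta, had 510 bp. Prim1, which encodes the primase that lays down the RNA primer, was narrowest at 403 bp.

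The clamp gene Pcna had 912 bp, at chromosome 2, 132252528 to 132253439. The loader genes had 814 bp in Rfc4, 722 bp in Rfc5, 633 bp in Rfc3 and 284 bp in Rfc2. Of the RPA genes, Rpa3 had 840 bp, Rpa2 had 696 bp and Rpa1 had 601 bp. Fen1, for the flap nuclease, had 634 bp.

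Many of these regions stood at the ends of neighbouring genes as well. A region at an end was within 1 kb of the end of another protein-coding gene in 15 of 42 genes (35.7%), against 16.7% of all genes. Among genes with a region at an end the shares were closer, at 38.5% of these genes against 27.0% of all. The regions inside Orc1 and Orc4 also lay at the ends of other genes, Prpf38a and Mbd5. In 9 of the 34 genes with an entry (26.5%), 1 region covered both the listed start of the gene and that of a gene on the opposite strand within 1 kb, against 7.85% of all genes with an entry. An opposite start within 1 kb, with or without a region, was listed for the same 9 genes, against 9.61% of all genes with an entry.

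The starts under 1 region were 15 bp apart at Orc3 and Rars2, 50 bp at Rpa1 and Smyd4, 105 bp at Lig1 and Zswim9, and 118 bp at Orc1 and Prpf38a. They were 138 bp apart at Mcm7 and Ap4m1, 147 bp at Rpa3 and Umad1, 241 bp at Orc4 and Mbd5, 281 bp at Fen1 and Tmem258, and 322 bp at Cdc45 and Ufd1. Which gene of a pair such a region belongs to cannot be told from its position. Prkdc, at Mcm4, Vps35, at Orc6, Trmt6, at Mcm8, and Pxmp2, at Pole, also had an end at the region, with no strand listed for at least 1 of the pair. The ends of Cds2, at Pcna, Klhdc1, at Pole2, and Nr1h2, at Pold1, were in reach too, but their nearest listed starts lay 9709, 13416 and 4908 bp from the region. At the far ends, the region of 116 bp in Orc3 lay near Akirin2 and that of 325 bp in Rfc4 near Eif4a2.

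Regions inside the genes and away from their ends were found in 17 of 42 genes (40.5%), against 43.2% of all genes. Among the 17827 genes in the length range of the 42, the share was 50.1%. The inside regions include those over the listed starts of Orc1, Orc4 and Rfc1, and Orc1 held no other. The clamp and loader genes had one in 5 of 6 cases, the polymerase genes in 5 of 9, the licensing genes in 4 of 9, the RPA, Fen1 and Lig1 group in 1 of 5, and the helicase genes in 2 of 13. The 2 helicase genes were Mcm6, with 104 bp, and Gins1, with 266 bp. Of the 40 inside regions, 12 lay in Prim2, which encodes the large subunit of primase and is 216.001 kb long. Rfc1 had 4, Pola2 and Pole2 had 3 each, and Orc3, Orc4, Pold3, Rfc4 and Lig1 had 2. Apart from those over listed starts, the widest were 850 bp in Orc3, at chromosome 4, 34581994 to 34582843, and 707 bp in Lig1, at chromosome 7, 13297443 to 13298149.

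Distal regions, which lay away from the ends of any protein-coding gene, were counted in each gene and up to 50 kb on either side. All 42 genes had at least 1, against 91.0% of all genes. Their median was 4.5 (quartiles 3 and 7.75), against 4 (2 and 7) over all genes, and 21 of the 42 were above the median of all genes, against 42.8%. Of these regions, 38 lay inside the genes and 186 outside them. Counted outside the gene alone, a choice made after the values were seen, the median was 3 over the 42 genes and 3 over all protein-coding genes. No region was counted for more than 1 of the 42 genes. The 224 regions had a median width of 241 bp, against 246 bp for all distal regions of the atlas.

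**Figure D4:**
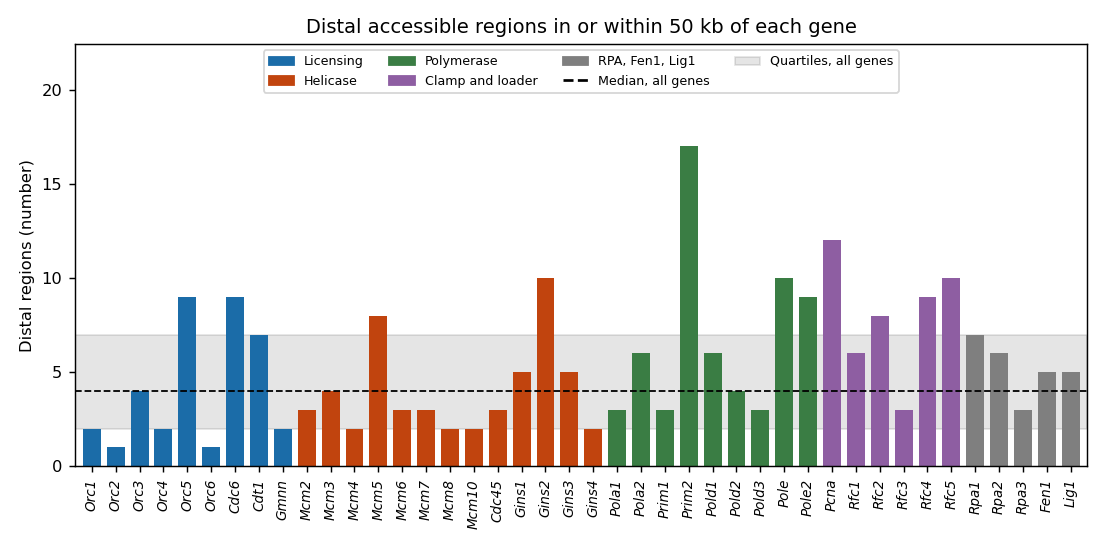
Number of distal regions in each of the 42 genes or within 50 kb of it, coloured by role. The dashed line is the median of 4 and the band the quartiles of 2 and 7 over all protein-coding genes; Prim2 (17) and Pcna (12) stand highest, and Orc2 and Orc6 have 1 each.

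The roles differed in this number, though with few genes in each and wide overlap. The clamp and loader genes had a median of 8.5 distal regions, from 12 at Pcna, 10 at Rfc5, 9 at Rfc4 and 8 at Rfc2 to 6 at Rfc1 and 3 at Rfc3. Each of the 12 at Pcna was nearer to an end of another protein-coding gene than to one of Pcna. Some of them lay inside the neighbouring gene Cds2. The 6 at Rfc1 include the region of 709 bp over its own listed start, which lies away from the outer limits. The polymerase genes had a median of 6, with 17 at Prim2, 10 at Pole and 9 at Pole2, and 3 each at Pola1, Prim1 and Pold3. Of the 17 at Prim2, 12 lay inside the gene and 5 outside. The RPA, Fen1 and Lig1 group had a median of 5, from 3 at Rpa3 to 7 at Rpa1. The helicase genes had a median of 3, with 10 at Gins2 and 8 at Mcm5, and 2 each at Mcm4, Mcm8, Mcm10 and Gins4. The licensing genes had a median of 2, with 9 each at Orc5 and Cdc6 and 7 at Cdt1, and 1 each at Orc2 and Orc6.

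Outside the gene alone, the medians were 7 for clamp and loader, 5 for the RPA, Fen1 and Lig1 group, 4 for polymerase, 3 for helicase and 2 for licensing. When a region was counted only for the protein-coding gene nearest to it, the medians were 2.5 for clamp and loader, 2 for polymerase, 1 for licensing and 0 for helicase and for the RPA, Fen1 and Lig1 group, against 1 over all genes. The widest distal region measured 1175 bp, at chromosome 1, 33407408 to 33408582. It lay 45.226 kb from Prim2, the protein-coding gene with the nearest end. The next, of 951 bp, lay 18.81 kb from Gins4 and 1.475 kb from an end of Golga7. The third, of 900 bp, at chromosome 2, 132262707 to 132263606, lay 9.527 kb from Pcna. It was inside Cds2, 9.369 kb from an end of that gene.

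Another 33 genes of replication, for the firing kinase, fork protection, histone assembly, RNase H2 and nucleotide supply among others, were read in the same way. All 33 had a region at an end; the share over all protein-coding genes was 62.0%. That region was in reach of another gene's end in 14 of them (42.4%), against 27.0% of all genes with one. Its median width was 648 bp and the median number of distal regions 5. Rnaseh2a, for the catalytic subunit of RNase H2, had the most distal regions with 17, and Timeless, for a fork protection factor, followed with 10. The end region of Rnaseh2a was the narrowest of the list, at 136 bp. TTTNGCGC stood in 2 of the 27 windows matched for these genes (7.41%), those of Clspn and Topbp1, against 1.76% of all windows. TTCCCGCC stood in 4 (14.8%), against 2.94%, and GGGCGG in 21 (77.8%), against 46.3%. CCAAT stood in 11 (40.7%), against 39.2%. At least 2 copies of CCAAT stood in 6 (22.2%), against 13.5%, and E2F letters together with CCAAT in 4 (14.8%), against 2.01%.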

How the data were processed

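The authors deposited 1 list of ATAC-seq regions for all 8 libraries, with a chromosome, a start and an end in bp and no other value. Per the submitters' processing notes, the tools were MACS2 2.1.1, Picard, SAMtools, Bowtie2, bedtools and cutadapt and the build GRCm38 (mm10), with no steps stated. For settings, Tn5 shift, blacklist and merging of libraries, details were not given in the sources used here. Depth per library is therefore unknown, and no sampling error can be given. Gene limits came from RefSeq for GRCm38.p6, which matched all 42 genes, and strands, starts and promoter sequences from RefSeq promoter windows, which matched 34.

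The molecule label reads total RNA, but titles and protocol describe ATAC-seq and were followed. Coordinates count from 1. A region counted from 1 bp of overlap, with an end reaching 1 kb. Distal regions were those at no end of a protein-coding gene. Where a gene had several windows, motifs were read in the one at the outermost listed start. All replication genes were named, and other genes by fixed rules. The members and lists were chosen with earlier results of these data known. Lists are described by counts and medians beside all protein-coding genes, with no test. Overlap and motif code, in Python 3.11.15 with pandas 2.3.3 and numpy 2.4.6, was tested on simulated data.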

Additional observations from a re-analysis of the deposited data

How the results depend on the processing

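No paired analysis was possible because regions carry no library values, and replicates could not be left out for the same reason. Of 79 alternatives run, 54 stayed within 1.5 times the reported value. Among them were all those for regions at ends, starts and inside. The 39 genes marked at an end became 38 with a reach of 500 bp, against 57.8% of all protein-coding genes. They stayed 39 with a reach of 2 kb, against 67%, and with regions of at least 150 bp only, against 59.2%. They became 30 when regions nearest to another gene's end were left out. The share of all genes under that rule was not computed, so whether the 30 exceed it is unknown. That setting was chosen after seeing the data. So were starts and motifs from any listed window, distal regions outside the gene only and the comparison with genes of like length.

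Distal medians moved with the window. At 25 kb they were 1 for licensing, 1 for helicase, 3 for polymerase, 5 for clamp and loader and 3 for the RPA, Fen1 and Lig1 group. At 100 kb the median was 7.5 over all 42 genes, with 5 for licensing, 6 for helicase, 12 for polymerase and 13.5 for clamp and loader. Counted for the nearest gene only, it was 1 over the 42 genes, with 1 for licensing, 0 for helicase, 2 for polymerase, 2.5 for clamp and loader and 0 for the RPA, Fen1 and Lig1 group. With regions of at least 150 bp it was 5 for clamp and loader and 3 for the RPA, Fen1 and Lig1 group. Over all protein-coding genes it was 2 at 25 kb, 7 at 100 kb and 1 for the nearest gene. On the gene strand alone, TTTNGCGC stood in 6 windows, TTCCCGCC in 2, CCAAT in 9 and TATAAA in 0. Shares of all windows on the gene strand alone were not computed. These counts therefore cannot be set beside the shares given above, which are for both strands.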

Other observations

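The 2 longest genes of the machinery differed inside. Prim2, 216.001 kb long on chromosome 1, held 12 regions away from its ends, while Pola1, 327.622 kb long on the X chromosome, held none. Of the 990 protein-coding genes of at least 200 kb, 15 (1.52%) held no such region and 228 (23%) held 12 or more, with a median of 7. On the X chromosome, 4 of 45 genes of that length held none (8.89%) and 1 held 12 or more, with a median of 3. Pola1 was the only one of 19 X-linked genes at least as long as itself that held none. Both genes were singled out after their values were seen.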
